A study of Homo sapiens with 13 samples.

Results

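The basal level of 42 interferon-stimulated genes was examined in 13 untreated acute lymphoblastic leukemia (ALL) cell lines. The genes were chosen by symbol, and each was read from the probe set that the platform annotation ties to that symbol alone, taking the one with the highest mean over the 13 arrays where there were several. This gave 41 of the 42 genes, out of 18568 genes with a probe set of their own, while STAT2 was not analysed here. RNA of each line was hybridised to 1 Affymetrix HG-U133 Plus 2.0 array. The lines fall into 6 of B-cell precursor type (BCP-ALL), named REH, 697, Nalm6, RS4,11, Nalm16 and Nalm30, and 7 of T-lineage type (T-ALL), named Jurkat, Molt4, ALL-SIL, CCRF-CEM, HPB-ALL, P12-ICHIKAWA and TALL-1. All lines had been grown for 30 h in RPMI-1640 with fetal bovine serum and received no drug and no interferon. Each is an established leukemia line, grown here as 1 culture, so the spread within a lineage lies between lines. Levels are given on the log2 scale of the deposited signals, whose lowest possible value is 4, and a level under 5 is called near the floor. In such a bulk sample, fewer expressing cells and less RNA per cell cannot be told apart.

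Interferons are secreted proteins that alert cells to infection. Type I interferons act through the receptor chains IFNAR1 and IFNAR2, the kinases JAK1 and TYK2 and a complex that holds STAT2 and IRF9, which binds the interferon-stimulated response element (ISRE) in the promoters of its target genes, whereas interferon gamma acts mainly through the gamma-activated sequence (GAS). The targets include RNA-binding proteins, nucleases, GTPases and ubiquitin-like modifiers that hinder viruses, and many are transcribed at some level in unstimulated cells as well.

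The response element is visible in the promoters of most of these genes. RefSeq windows (GRCh38.p14) from 250 bases before to 50 bases after a transcription start were found for 33 of the 41 genes, 8 of them with several starts. GBP2, IFIT2, IRF7, MX2, OAS2, OASL, TRIM22 and USP18 were not in the table. The ISRE core, searched as GAAANNGAAA on both strands, was present in at least 1 window of 25 of these 33 genes (75.8%), against 1195 of all 27305 genes (4.38%) and 659 of 15842 protein-coding genes (4.16%). The GAS, searched as TTCNNNGAA, which reads the same on both strands, was present in 10 of 33 (30.3%) against 9.38% of all genes. Of the 33 genes, 12 held 2 or more ISRE cores in a single window. No core was found in the windows of HERC6, IFI35, IRF1, IRF9, OAS1, SAMD9L, XAF1 and CMPK2, although CMPK2 also differed widely between the lines. The following stretches before the start, written 5′ to 3′ along the gene with the core in capitals, belong to ISG15, the best known product of the pathway, and to 7 genes whose levels differed widely between the lines. Where the core is on the opposite strand it appears as TTTCNNTTTC.

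ISG15 (chr1:1013364-1013419, plus strand): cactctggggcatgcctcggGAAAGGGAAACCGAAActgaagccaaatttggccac
IFITM1 (chr11:313980-314029, plus strand): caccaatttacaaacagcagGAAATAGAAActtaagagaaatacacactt
EPSTI1 (chr13:42992262-42992311, minus strand): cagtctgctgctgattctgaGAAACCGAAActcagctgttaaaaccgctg
SAMD9 (chr7:93118086-93118135, minus strand): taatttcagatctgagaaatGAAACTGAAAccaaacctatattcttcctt
PARP14 (chr3:122680790-122680838, plus strand): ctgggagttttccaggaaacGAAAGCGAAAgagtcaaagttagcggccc
GBP1 (chr1:89065306-89065355, minus strand): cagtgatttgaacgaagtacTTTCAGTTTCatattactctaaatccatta
ISG20 (chr15:88638927-88638976, plus strand): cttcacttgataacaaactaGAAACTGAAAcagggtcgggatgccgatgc
HERC5 (chr4:88456974-88457074, plus strand): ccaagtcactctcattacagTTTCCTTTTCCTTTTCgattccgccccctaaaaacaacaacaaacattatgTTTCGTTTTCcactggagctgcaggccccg

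The cores of EPSTI1, PARP14 and IFITM1 began at positions -50, -29 and -40 from the start, and those of SAMD9 and GBP1 at -136 and -127. A second core of IFITM1 began at -6, crosses the start and is not in the stretch shown. In ISG15 and HERC5 the cores overlap, so that GAAA blocks follow each other at a fixed spacing. A match is a description of the letters and was not tested as a binding site.

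The arrays bear on every comparison below. Their medians ran from 5.05 to 5.37. The arrays of P12-ICHIKAWA and TALL-1 were almost alike over all probe sets (Pearson's r 0.993), and those of Nalm16 and Nalm30 came next (0.959), while the lowest value of any pair was 0.770. Both pairs share a lineage. Where a call in the set changes, lineage differences are given with P12-ICHIKAWA and TALL-1 as 1 line and without Nalm16 and Nalm30. Nalm16 also stood low over all 12560 genes that passed the filter on low expression, at a mean of -0.31 log2 units from the mean of the 13 lines. Lineage markers followed the labels: 7 of 7 tested B-cell precursor markers were lower in T-ALL and 8 of 9 T-cell precursor markers were higher. Exceptions within a line included VPREB1 at 4.15 in REH, CD2 at 4.57 in CCRF-CEM and 4.51 in Molt4, and CD1A at 4.86 in CCRF-CEM. The myeloid genes MPO and LYZ reached 12.11 in REH and 11.20 in Nalm6, where CD14, FCGR1A and S100A8 were near the floor. NKG7, on the natural killer list, was 11.19 in ALL-SIL, where KLRD1 and NCAM1 were near the floor. On the mature B-cell list, MS4A1 was 9.05 in 697 and CD27 was 8.89 in Nalm16 and 9.77 in Nalm30. The lines came from 4 laboratories, and only 1 of these, the source of Nalm6, Jurkat, CCRF-CEM and Molt4, provided lines of both lineages.

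The first question was which lines carry a high or an absent basal signature. For each line, the mean over the 41 genes of the level minus that gene's mean over the 13 lines was taken as its mean member level. REH stood highest at 0.59 log2 units, followed by Molt4 at 0.41 and ALL-SIL at 0.33. RS4,11 (0.07), HPB-ALL (0.05), TALL-1 (-0.02), P12-ICHIKAWA (-0.05), CCRF-CEM (-0.09), Jurkat (-0.10), Nalm30 (-0.12) and Nalm6 (-0.13) lay close together, and 697 (-0.44) and Nalm16 (-0.50) were lowest. The mean over lines was -0.09 ± 0.40 in BCP-ALL (SD, n = 6) and 0.08 ± 0.21 in T-ALL (SD, n = 7), and the ranges of the lineages overlapped, with both the highest and the lowest line in BCP-ALL. REH, Molt4 and ALL-SIL were the 3 highest lines, in this order, under each of the 6 other settings tried. Nalm16 was at -0.20 under quantile normalization and at -0.19 when the mean of all tested genes in the line was subtracted, and 697 was then the lowest line, at -0.42 and -0.40. With the mean of all probe sets of a gene, 697 was also lowest, at -0.39, as it was with median centering, at -0.53. Jurkat was the second lowest line under quantile normalization and when the mean of all tested genes was subtracted.

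Counts of single genes gave this contrast only in part. REH held the highest level of 9 of the 41 genes (22%), while it was the highest line for 7.22% of all tested genes, and 33 of its 41 values were above the mean of the gene. In Nalm16, 13 of the 41 genes were near the floor, in 697 and Nalm30 10 each, and in Nalm6 8. REH and Molt4 had 3 genes near the floor each, and the remaining 7 lines had 4 to 7. Of all tested genes, which leave out 3 of the 41, 14.9% were near the floor in Nalm16, 8.04% in 697, 11.3% in Nalm30 and 11.4% in Nalm6. The shares were 8.63% in REH, 9.4% in Molt4 and 8.05% to 12.4% in the remaining lines. Nalm16 had the lowest level of 8 genes (19.5%), but it was also the lowest line for 27.7% of all tested genes. For 697 these shares were 7.32% and 9.75%. CCRF-CEM had the lowest level of 6 genes (14.6%), against 3.97% of all tested genes. Molt4 held the highest level of 7.32% of the 41 genes, against 8.55% of all tested genes. No line lacked the whole set, and 16 of the 41 genes were not near the floor in any line.

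**Figure D1:**
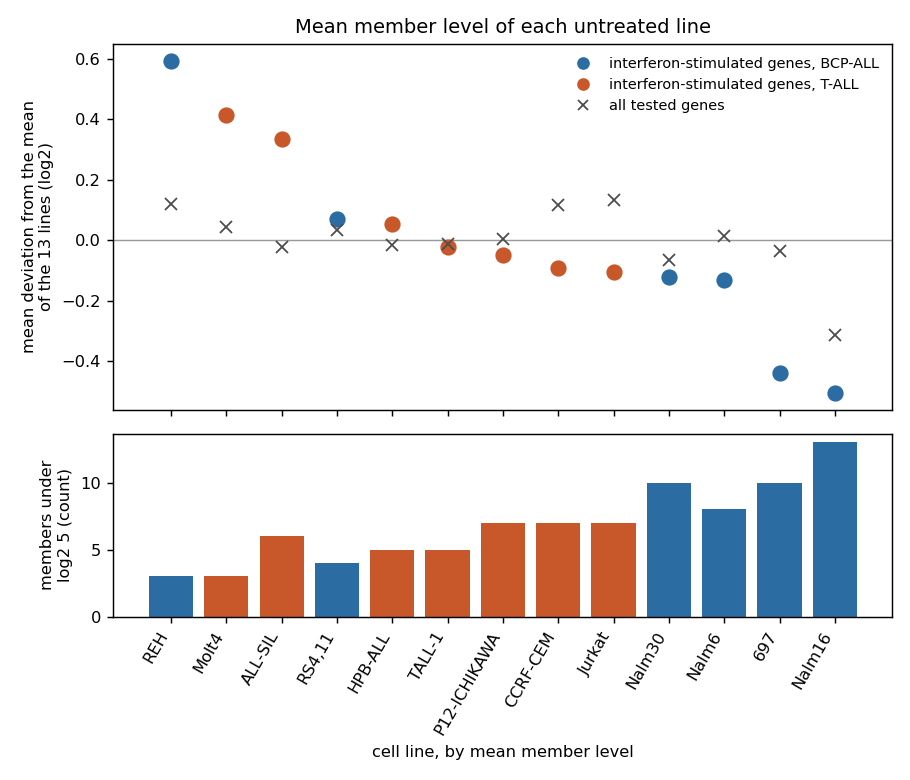
Mean member level of each line (upper panel, dots, log2 deviation from the mean of the 13 lines, coloured by lineage) beside the mean of all tested genes in the same line (crosses), and the number of the 41 interferon-stimulated genes under log2 5 (lower panel, bars). REH, Molt4 and ALL-SIL lie at 0.59, 0.41 and 0.33, 697 and Nalm16 at -0.44 and -0.50, and the cross of Nalm16 is also low.

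The genes varied more between lines than most genes did. The range over the 13 lines had a median of 3.14 log2 units among the 38 genes that passed the filter, against 1.78 over all tested genes, and 22 of the 38 (57.9%) had a range of 3 log2 units or more, against 22.6% of all tested genes. IFI27, IFI44L and GBP2 did not pass the filter. IFI27 was near the floor in 13 of 13 lines and GBP2 in 10, and IFI44L ran from 4.58 in REH to 5.90 in Nalm30.

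**Figure D2:**
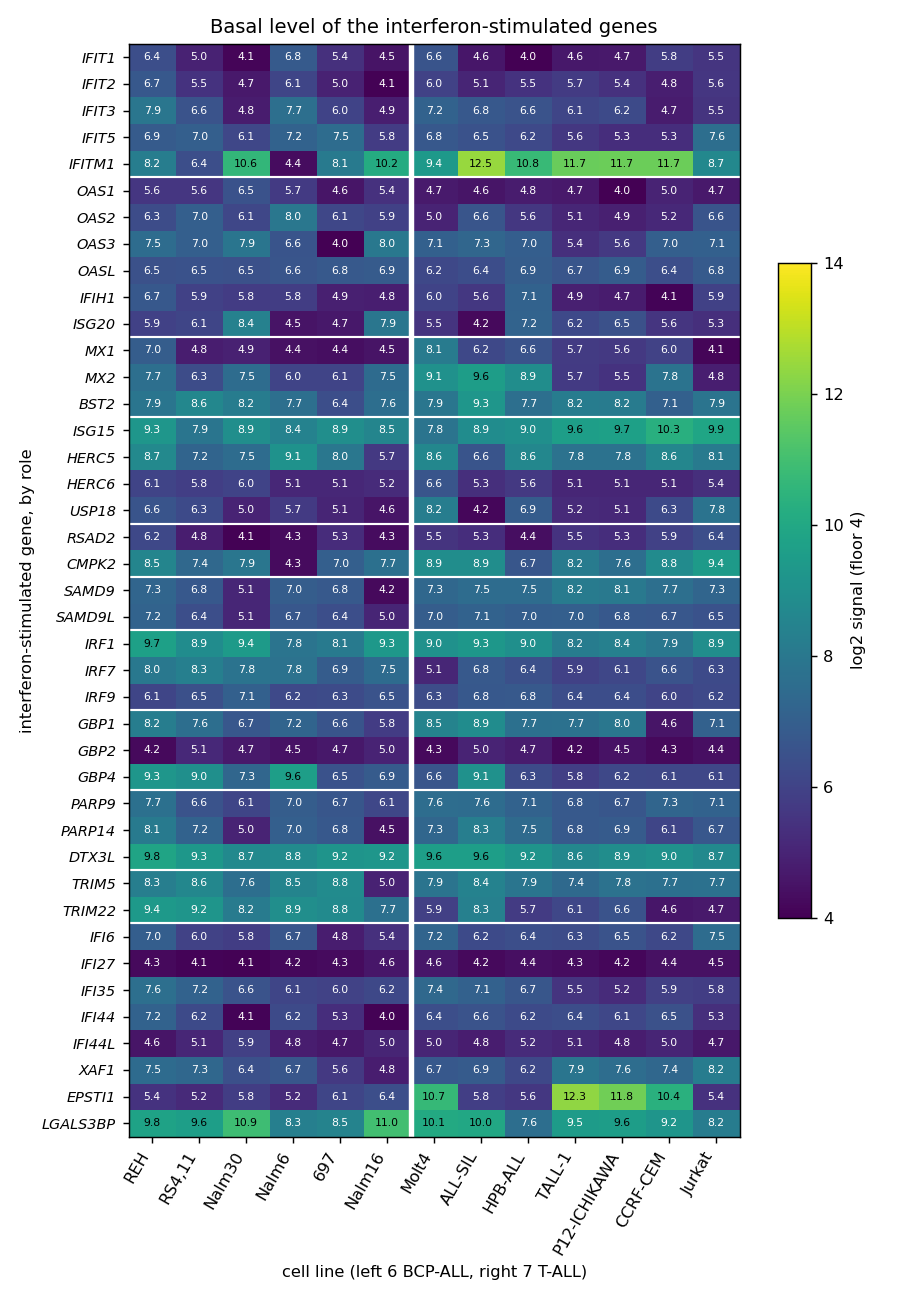
Log2 signal of the 41 interferon-stimulated genes (rows, grouped by role) in each line (columns, 6 BCP-ALL lines on the left and 7 T-ALL lines on the right, each ordered by mean member level). Each row is 1 probe set, so colours are to be compared along a row. EPSTI1 exceeds 10 in 4 T-ALL lines, and IFI44, SAMD9 and PARP14 are low in Nalm16 and Nalm30.

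The second question was whether the lineages differ. Of the 38 genes tested with limma against all 12560 genes, none was called higher in T-ALL (0, against 3.96% of all tested genes) and 3 were called lower, which is 7.89% of the 38 against 3.67% of all tested genes. At an unadjusted p under 0.05, limma gave 4 genes higher and 5 lower in T-ALL, where 15.1% and 10.1% of all tested genes fell. The differences had a median of 0.06 log2 units over the 38 genes and 0.03 over all tested genes, with 20 positive and 18 negative. The 3 genes called were IRF7, TRIM22 and OAS1.

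IRF7, the transcription factor that drives transcription of type I interferon genes, was the only one of the 41 genes whose levels did not overlap between the lineages, which held for 3.69% of all tested genes. Log2 IRF7 in BCP-ALL was 6.90 in 697, 7.75 in Nalm6, 8.02 in REH, 8.33 in RS4,11, 7.50 in Nalm16 and 7.82 in Nalm30. IRF7 in T-ALL was 6.79 in ALL-SIL, 6.58 in CCRF-CEM, 6.44 in HPB-ALL, 6.26 in Jurkat, 5.09 in Molt4, 6.15 in P12-ICHIKAWA and 5.94 in TALL-1. All 6 BCP-ALL lines lay above ALL-SIL, the highest T-ALL line, and Molt4, which had the second highest mean member level, had the lowest IRF7. The means were 7.72 ± 0.49 in BCP-ALL (SD, n = 6) and 6.18 ± 0.56 in T-ALL (SD, n = 7), a difference of -1.54 (SE 0.28, 95% interval -2.15 to -0.93) with an adjusted p of 0.00459 by limma. It passed under each of the 23 alternatives, with adjusted p from 0.00166 to 0.0434. Within the laboratory that provided both lineages, IRF7 was 7.75 in its BCP-ALL line and 5.97 on average in its 3 T-ALL lines. The other interferon regulatory factors of the set, IRF1 and IRF9, differed by -0.20 and -0.03, with adjusted p of 0.74 and 0.942, and neither was near the floor in any line.

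TRIM22, an antiviral ubiquitin ligase, showed the largest difference among the 3. Log2 TRIM22 in BCP-ALL was 8.77 in 697, 8.92 in Nalm6, 9.35 in REH, 9.20 in RS4,11, 7.70 in Nalm16 and 8.18 in Nalm30. TRIM22 in T-ALL was 8.34 in ALL-SIL, 4.60 in CCRF-CEM, 5.73 in HPB-ALL, 4.68 in Jurkat, 5.89 in Molt4, 6.57 in P12-ICHIKAWA and 6.11 in TALL-1. ALL-SIL was the only T-ALL line inside the BCP-ALL range, and CCRF-CEM and Jurkat were near the floor. The means were 8.69 ± 0.63 in BCP-ALL (SD, n = 6) and 5.99 ± 1.26 in T-ALL (SD, n = 7), and the difference was -2.70 (SE 0.53, 95% interval -3.83 to -1.57), with an adjusted p of 0.0067 by limma and of 0.000307 to 0.0175 over the alternatives. TRIM5, which binds the capsids of retroviruses and whose gene lies beside TRIM22 on chromosome 11, did not follow it. Log2 TRIM5 in BCP-ALL was 8.84 in 697, 8.53 in Nalm6, 8.27 in REH, 8.62 in RS4,11, 4.97 in Nalm16 and 7.62 in Nalm30. TRIM5 in T-ALL was 8.43 in ALL-SIL, 7.71 in CCRF-CEM, 7.88 in HPB-ALL, 7.73 in Jurkat, 7.86 in Molt4, 7.75 in P12-ICHIKAWA and 7.42 in TALL-1. Nalm16 stood far below every other line. TRIM5 differed by 0.02 between the lineages (adjusted p 0.986), and by -0.74 without Nalm16 and Nalm30, where it was called lower in T-ALL by limma (adjusted p 0.0436).

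OAS1 makes the oligoadenylates that activate RNase L. Log2 OAS1 in BCP-ALL was 4.58 in 697, 5.69 in Nalm6, 5.57 in REH, 5.57 in RS4,11, 5.41 in Nalm16 and 6.53 in Nalm30. OAS1 in T-ALL was 4.55 in ALL-SIL, 5.01 in CCRF-CEM, 4.77 in HPB-ALL, 4.68 in Jurkat, 4.74 in Molt4, 4.01 in P12-ICHIKAWA and 4.67 in TALL-1. In T-ALL 6 lines were near the floor and CCRF-CEM lay at the limit, whereas 697 was the only such BCP-ALL line. The means were 5.56 ± 0.63 in BCP-ALL (SD, n = 6) and 4.63 ± 0.31 in T-ALL (SD, n = 7), a difference of -0.93 (SE 0.26, 95% interval -1.49 to -0.37) with an adjusted p of 0.046 by limma. This call was the least stable of the 3, since it was kept in 3 of 22 alternatives, with adjusted p from 0.00944 to 0.182, and among the fits that leave out 1 line it passed only without 697. The OAS1 difference was -0.88 (adjusted p 0.0831) with P12-ICHIKAWA and TALL-1 as 1 line and -0.72 (adjusted p 0.118) without Nalm16 and Nalm30. The second probe set of OAS1 gave -0.92. OAS2, another synthetase, had a difference of -1.02 (SE 0.40, 95% interval -1.88 to -0.16), without passing the adjustment (adjusted p 0.135), and ran from 5.92 to 7.97 in BCP-ALL and from 4.87 to 6.64 in T-ALL.

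**Figure D3:**
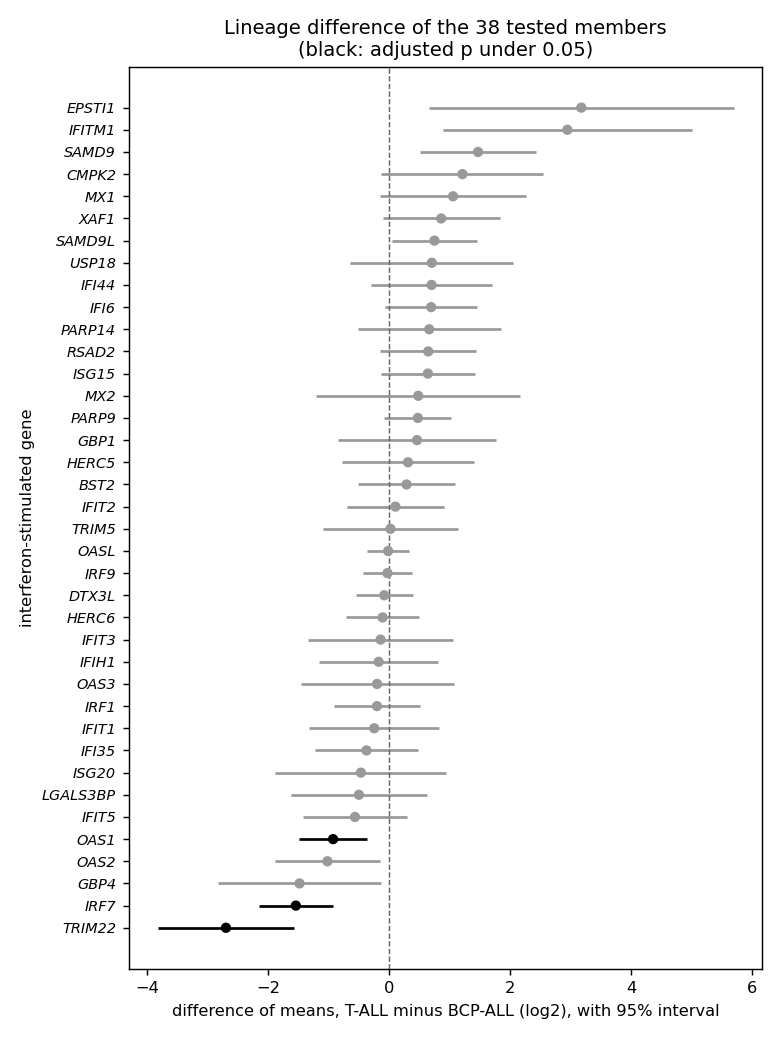
Difference of the mean log2 level between T-ALL (n = 7) and BCP-ALL (n = 6) for the 38 tested genes, as points with the 95% interval of limma. Black points have an adjusted p under 0.05 and are TRIM22 (-2.70), IRF7 (-1.54) and OAS1 (-0.93), while EPSTI1 (3.18) and IFITM1 (2.95) lie farthest to the right with wide intervals.

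Among the IFIT and IFITM proteins, none was called between the lineages. IFITM1, a membrane protein that hinders the entry of enveloped viruses, had the widest range of all 41 genes. Log2 IFITM1 in BCP-ALL was 8.11 in 697, 4.35 in Nalm6, 8.23 in REH, 6.38 in RS4,11, 10.17 in Nalm16 and 10.62 in Nalm30. IFITM1 in T-ALL was 12.46 in ALL-SIL, 11.75 in CCRF-CEM, 10.76 in HPB-ALL, 8.67 in Jurkat, 9.38 in Molt4, 11.75 in P12-ICHIKAWA and 11.70 in TALL-1. Nalm6 was near the floor, Nalm16 and Nalm30 lay above Molt4 and Jurkat, and the other T-ALL lines were higher still. The difference of 2.95 (SE 0.96, 95% interval 0.89 to 5.0) had an adjusted p of 0.0784 by limma, and it was called only without Nalm16 and Nalm30 (4.16, adjusted p 0.0188). Probe sets of this family can share sequence with its other members, and the one used carries the suffix that Affymetrix gives to probe sets shared by several transcripts. Probe sets with this suffix served 11 of the 41 genes, among them IRF7 and TRIM22, which have no other probe set of their own. IFITM2 and IFITM3 had another pattern than IFITM1. They were 5.71 and 6.10 in HPB-ALL, 4.96 and 5.25 in Molt4, and 9.16 or more and 8.37 or more in the other lines. The IFIT genes encode RNA-binding proteins that block translation of foreign RNA and lie in a cluster on chromosome 10. IFIT1 ran from 4.0 in HPB-ALL to 6.84 in Nalm6 and was near the floor in 7 lines. IFIT2 and IFIT3 were both highest in REH, at 6.74 and 7.93, and IFIT3 was lowest in CCRF-CEM (4.75), Nalm30 (4.76) and Nalm16 (4.86). IFIT5 ran from 5.30 to 7.60 and was near the floor in no line. The 4 IFIT genes differed by -0.57 to 0.10 between the lineages.

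**Figure D4:**
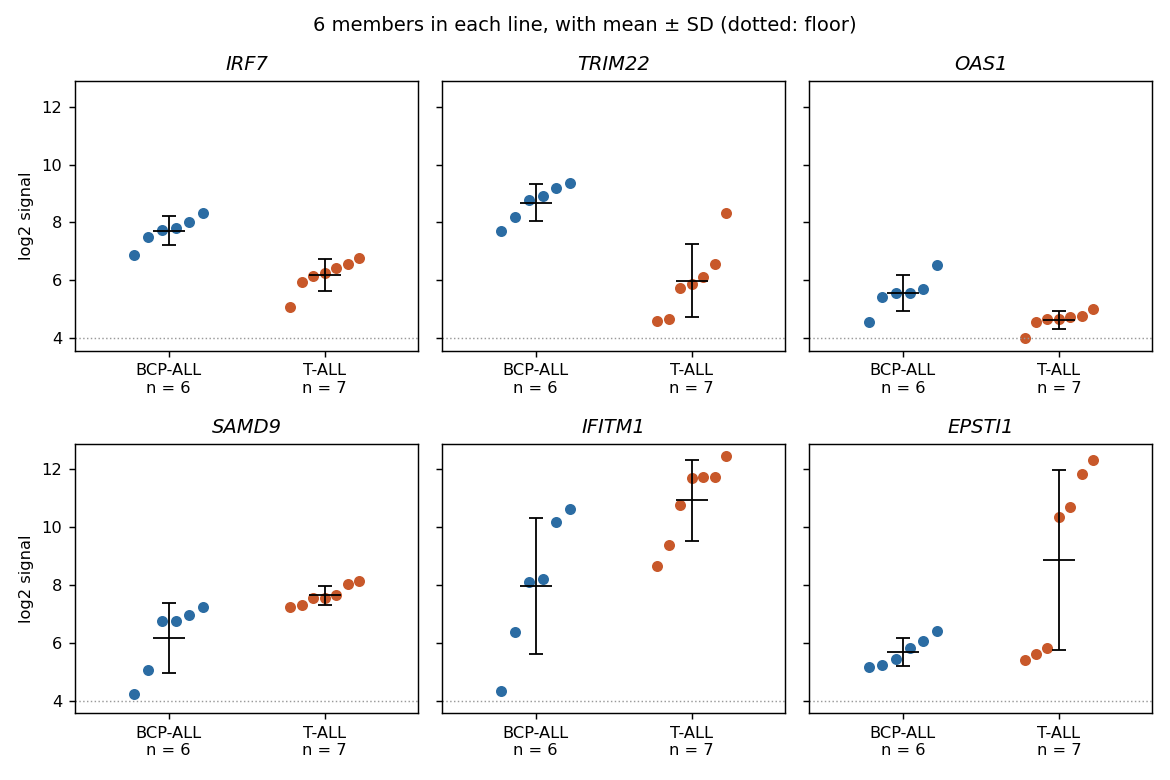
Log2 signal of IRF7, TRIM22, OAS1, SAMD9, IFITM1 and EPSTI1 in each BCP-ALL line (blue, n = 6) and T-ALL line (orange, n = 7), with mean ± SD in black and the floor of 4 dotted. IRF7 does not overlap, ALL-SIL is the T-ALL line with high TRIM22, and EPSTI1 falls into 4 high and 3 low T-ALL lines.

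Of the other genes of RNA sensing and decay, OAS3, the largest of the synthetases, was uneven within each lineage. Log2 OAS3 in BCP-ALL was 4.03 in 697, 6.59 in Nalm6, 7.52 in REH, 7.01 in RS4,11, 8.0 in Nalm16 and 7.88 in Nalm30. OAS3 in T-ALL was 7.30 in ALL-SIL, 7.03 in CCRF-CEM, 6.99 in HPB-ALL, 7.06 in Jurkat, 7.08 in Molt4, 5.65 in P12-ICHIKAWA and 5.36 in TALL-1. The low lines were 697, near the floor, and the pair P12-ICHIKAWA and TALL-1. ISG20, an exonuclease for RNA, was high in a different set of lines. Log2 ISG20 in BCP-ALL was 4.66 in 697, 4.51 in Nalm6, 5.92 in REH, 6.11 in RS4,11, 7.92 in Nalm16 and 8.38 in Nalm30. ISG20 in T-ALL was 4.24 in ALL-SIL, 5.56 in CCRF-CEM, 7.20 in HPB-ALL, 5.33 in Jurkat, 5.50 in Molt4, 6.46 in P12-ICHIKAWA and 6.19 in TALL-1. Nalm30 and Nalm16 were highest and ALL-SIL, Nalm6 and 697 were near the floor. The other probe set of ISG20 also had Nalm30 highest, at 8.27, but Nalm16 at 6.20, under HPB-ALL at 7.25. OASL, a relative of the synthetases without their activity, hardly varied, with a range of 0.79, and IFIH1, the sensor also known as MDA5, ran from 4.11 in CCRF-CEM to 7.13 in HPB-ALL. None of these 4 genes was called between the lineages, at adjusted p of 0.69 or more.

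The GTPases MX1 and MX2, which block viral replication in the cytoplasm and at the nucleus, lie side by side on chromosome 21. Log2 MX1 in BCP-ALL was 4.37 in 697, 4.44 in Nalm6, 6.97 in REH, 4.78 in RS4,11, 4.53 in Nalm16 and 4.91 in Nalm30. MX1 in T-ALL was 6.17 in ALL-SIL, 5.99 in CCRF-CEM, 6.55 in HPB-ALL, 4.15 in Jurkat, 8.15 in Molt4, 5.64 in P12-ICHIKAWA and 5.74 in TALL-1. Molt4 and REH were highest, and 6 lines were near the floor, 5 of them BCP-ALL and 1 Jurkat. Log2 MX2 in BCP-ALL was 6.07 in 697, 6.04 in Nalm6, 7.66 in REH, 6.31 in RS4,11, 7.48 in Nalm16 and 7.55 in Nalm30. MX2 in T-ALL was 9.56 in ALL-SIL, 7.83 in CCRF-CEM, 8.89 in HPB-ALL, 4.83 in Jurkat, 9.06 in Molt4, 5.46 in P12-ICHIKAWA and 5.69 in TALL-1. MX2 was highest in ALL-SIL, Molt4 and HPB-ALL and lowest in Jurkat. Neither gene was called between the lineages (adjusted p 0.254 for MX1 and 0.738 for MX2). BST2, or tetherin, which holds budding viruses at the cell surface, ran from 6.40 in 697 to 9.26 in ALL-SIL.

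ISG15, the ubiquitin-like modifier, was well above the floor in every line, from 7.85 in Molt4 to 10.31 in CCRF-CEM, and its level did not run with the mean member level (r -0.14 over 13 lines). The ligase HERC5, which attaches ISG15 to proteins, also stood above the floor in every line. Log2 HERC5 in BCP-ALL was 7.95 in 697, 9.09 in Nalm6, 8.70 in REH, 7.24 in RS4,11, 5.67 in Nalm16 and 7.52 in Nalm30. HERC5 in T-ALL was 6.59 in ALL-SIL, 8.59 in CCRF-CEM, 8.62 in HPB-ALL, 8.09 in Jurkat, 8.63 in Molt4, 7.78 in P12-ICHIKAWA and 7.75 in TALL-1. Nalm16 and ALL-SIL were the low lines. USP18 removes ISG15 and restrains signaling at the type I receptor. Log2 USP18 in BCP-ALL was 5.05 in 697, 5.70 in Nalm6, 6.60 in REH, 6.26 in RS4,11, 4.59 in Nalm16 and 4.99 in Nalm30. USP18 in T-ALL was 4.16 in ALL-SIL, 6.25 in CCRF-CEM, 6.91 in HPB-ALL, 7.80 in Jurkat, 8.22 in Molt4, 5.14 in P12-ICHIKAWA and 5.17 in TALL-1. Molt4 and Jurkat were highest, ALL-SIL was at 4.16, and Nalm16 and Nalm30 were also near the floor. HERC6 ran from 5.06 to 6.65. No gene of this group was called between the lineages.

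RSAD2, or viperin, makes an antiviral nucleotide from a precursor supplied by CMPK2, and their genes overlap on chromosome 2. Log2 CMPK2 in BCP-ALL was 7.04 in 697, 4.29 in Nalm6, 8.54 in REH, 7.38 in RS4,11, 7.71 in Nalm16 and 7.93 in Nalm30. CMPK2 in T-ALL was 8.92 in ALL-SIL, 8.81 in CCRF-CEM, 6.68 in HPB-ALL, 9.43 in Jurkat, 8.89 in Molt4, 7.62 in P12-ICHIKAWA and 8.17 in TALL-1. Nalm6 was near the floor while the other 12 lines were at 6.68 or more. RSAD2 was near the floor in 5 lines and reached 6.41 in Jurkat, which was also the highest line of CMPK2. The differences of 1.21 for CMPK2 and 0.65 for RSAD2 did not pass (adjusted p 0.238 and 0.284).

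SAMD9 and SAMD9L are adjacent genes on chromosome 7 whose products restrain translation and growth, and SAMD9 came nearest to a call in the other direction. Log2 SAMD9 in BCP-ALL was 6.78 in 697, 6.96 in Nalm6, 7.26 in REH, 6.75 in RS4,11, 4.24 in Nalm16 and 5.08 in Nalm30. SAMD9 in T-ALL was 7.54 in ALL-SIL, 7.66 in CCRF-CEM, 7.54 in HPB-ALL, 7.26 in Jurkat, 7.32 in Molt4, 8.05 in P12-ICHIKAWA and 8.15 in TALL-1. Nalm16 and Nalm30 were lowest, and the other BCP-ALL lines reached from just under the T-ALL range up to REH, which was level with Jurkat. The difference of 1.47 (SE 0.44, 95% interval 0.51 to 2.42) had an adjusted p of 0.0615 by limma, which became 0.0339 without REH, 0.0435 with median centering and 0.0428 with the mean of all probe sets, while the difference was 0.71 (adjusted p 0.0652) without Nalm16 and Nalm30. SAMD9L differed by 0.75 (SE 0.33, 95% interval 0.04 to 1.45), with an adjusted p of 0.174, and by 0.20 (adjusted p 0.61) without Nalm16 and Nalm30.

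GBP1 and GBP4 encode GTPases that are induced mainly by interferon gamma. Log2 GBP1 in BCP-ALL was 6.59 in 697, 7.21 in Nalm6, 8.23 in REH, 7.63 in RS4,11, 5.78 in Nalm16 and 6.71 in Nalm30. GBP1 in T-ALL was 8.86 in ALL-SIL, 4.56 in CCRF-CEM, 7.68 in HPB-ALL, 7.11 in Jurkat, 8.49 in Molt4, 7.96 in P12-ICHIKAWA and 7.74 in TALL-1. CCRF-CEM was near the floor and stood alone. Log2 GBP4 in BCP-ALL was 6.52 in 697, 9.61 in Nalm6, 9.26 in REH, 8.97 in RS4,11, 6.87 in Nalm16 and 7.28 in Nalm30. GBP4 in T-ALL was 9.07 in ALL-SIL, 6.11 in CCRF-CEM, 6.28 in HPB-ALL, 6.12 in Jurkat, 6.64 in Molt4, 6.17 in P12-ICHIKAWA and 5.84 in TALL-1. GBP4 was high in Nalm6, REH, RS4,11 and, alone among the T-ALL lines, in ALL-SIL. Its difference of -1.48 (SE 0.62, 95% interval -2.82 to -0.14) did not pass (adjusted p 0.159), but it did without ALL-SIL (-1.89, adjusted p 0.0447).

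PARP14 and PARP9 are ADP-ribosyltransferases, and DTX3L is the ubiquitin ligase that pairs with PARP9. All 3 genes lie on chromosome 3. Log2 PARP14 in BCP-ALL was 6.77 in 697, 7.02 in Nalm6, 8.10 in REH, 7.16 in RS4,11, 4.45 in Nalm16 and 4.99 in Nalm30. PARP14 in T-ALL was 8.29 in ALL-SIL, 6.08 in CCRF-CEM, 7.47 in HPB-ALL, 6.72 in Jurkat, 7.31 in Molt4, 6.86 in P12-ICHIKAWA and 6.80 in TALL-1. Nalm16 and Nalm30 were again the low lines, and the other probe set of PARP14, with a correlation of -0.46 to this one, did not follow it and ran only from 4.89 to 5.55. PARP9 ran from 6.09 in Nalm30 to 7.69 in REH, and DTX3L from 8.64 in TALL-1 to 9.83 in REH. None was called between the lineages.

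EPSTI1, an interferon-induced gene also named for epithelial-stromal interaction, split the T-ALL lines. Log2 EPSTI1 in BCP-ALL was 6.09 in 697, 5.23 in Nalm6, 5.45 in REH, 5.17 in RS4,11, 6.42 in Nalm16 and 5.82 in Nalm30. EPSTI1 in T-ALL was 5.84 in ALL-SIL, 10.35 in CCRF-CEM, 5.62 in HPB-ALL, 5.42 in Jurkat, 10.68 in Molt4, 11.85 in P12-ICHIKAWA and 12.33 in TALL-1. CCRF-CEM, Molt4, P12-ICHIKAWA and TALL-1 stood at 10.35 or more, and the other 9 lines of either lineage at 6.42 or less. A second probe set gave the same 4 lines the highest levels, at 7.14 or more against 6.25 or less. The difference of 3.18 (SE 1.17, 95% interval 0.66 to 5.69) did not pass (adjusted p 0.115 by limma). LGALS3BP, a secreted galectin-binding glycoprotein, was highest in Nalm16 (10.96) and Nalm30 (10.88) and lowest in HPB-ALL (7.60). IFI44 was at 4.05 in Nalm16 and 4.11 in Nalm30 and at 5.29 or more elsewhere. XAF1, a partner of the apoptosis inhibitor XIAP, ran from 4.80 in Nalm16 to 8.22 in Jurkat, IFI6 from 4.80 in 697 to 7.55 in Jurkat, and IFI35 from 5.23 in P12-ICHIKAWA to 7.64 in REH.

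Nalm16 and Nalm30 shared a set of low genes. IFI44, IFIT2, SAMD9, SAMD9L, PARP9 and PARP14 were lower in both than in any other line, which is 6 of 41 genes (14.6%), against 20.5% of all tested genes. The other probe sets of SAMD9 and SAMD9L were also lowest in both, though a SAMD9L probe set among them was near the floor in 13 lines. The other probe sets of IFI44 and IFIT2, near the floor in 9 and 11 lines, were not lowest in both. For IFI44, ALL-SIL (4.62) was below Nalm16 (4.77) and Nalm30 (4.66), and for IFIT2, TALL-1 (4.38) was below Nalm30 (4.84). Those of PARP9 and PARP14 were not either, with Nalm16 at 6.15 and 5.55 and P12-ICHIKAWA at 5.42 and 4.89. ISG20, OAS3 and LGALS3BP were higher in both than in any other line (3 of 41, or 7.32%, against 12% of all tested genes). The other probe set of ISG20 had Nalm16 at 6.20, under HPB-ALL at 7.25, and that of OAS3 was near the floor in 13 lines. Both shares, taken with the probe set used for each gene, were below those of all tested genes.

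How far the genes moved together was described by Pearson's r over the 13 lines, whose points share the array scale and the related pairs of lines. The 703 pairs of the 38 genes had a median r of 0.14, against 0.02 over all pairs of tested genes, and 61 pairs (8.68%) reached 0.6, against 8.24%. Without Nalm16 and Nalm30 the median was 0.17 over 11 lines. Among 18 pairs that lie within 200 kb of each other on the reference genome, the median was 0.51 and 6 reached 0.6. These were SAMD9 and SAMD9L (0.93), IFIT2 and IFIT3 (0.84), PARP9 and PARP14 (0.80), MX1 and MX2 (0.68), CMPK2 and RSAD2 (0.67) and IFIT1 and IFIT2 (0.61). Without Nalm16 and Nalm30, SAMD9 and SAMD9L had an r of 0.56 and PARP9 and PARP14 of 0.55, while TRIM5 and TRIM22 went from 0.27 to 0.85. HERC5 and HERC6 had an r of 0.20 with all lines. The closest pair of all was IFI44 and SAMD9L, at 0.94, and 0.76 without Nalm16 and Nalm30. Neighbouring pairs among all tested genes were not examined, so the 18 pairs have no background at this distance.

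**Figure D5:**
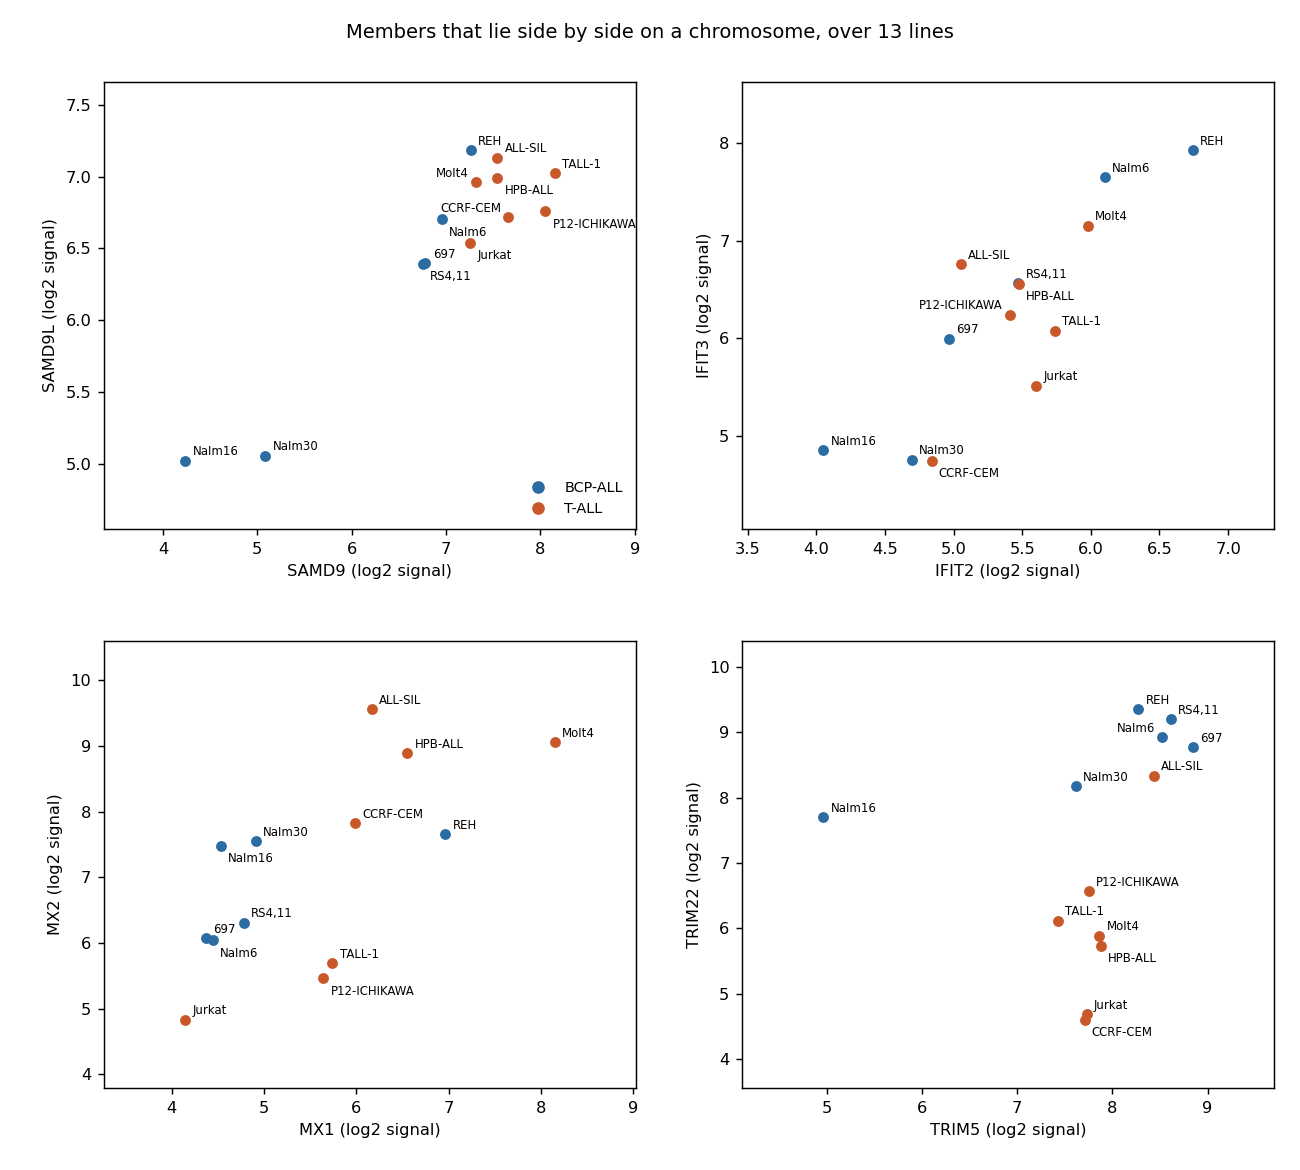
Log2 signal of 4 pairs of neighbouring genes, 1 point per line (blue BCP-ALL, orange T-ALL). SAMD9 and SAMD9L are both low in Nalm16 and Nalm30, IFIT2 and IFIT3 are both highest in REH, and the point of Nalm16 lies to the left of all others in the panel of TRIM5 and TRIM22.

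The genes most like the mean member level were MX1 (r 0.79), PARP9 (0.77), PARP14 (0.75), IFI44 (0.74) and IFIT2 (0.71), which are part of that mean. OASL (-0.61), ISG20 (-0.25), ISG15 (-0.14) and IRF7 (-0.12) ran least with it. Among genes outside the set, the 15 with the highest r were GPR107 (0.87), APOL1 (0.87), ASB8 (0.85), VAV1 (0.84), TOGARAM1 (0.84), TRIM56 (0.84), FNTA (0.83), NBR2 (0.83), SNAP29 (0.81), WDCP (0.81), MIDN (0.81), FEM1C (0.81), ISG20L2 (0.81), ZBTB5 (0.80) and MEGF9 (0.80). APOL1 and TRIM56 of these are known interferon-induced genes. These are the extremes of 12522 genes compared over 13 lines.

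The rest of the pathway was read from fixed lists of ligands, receptors, signaling genes, inhibitors, sensors and further interferon-induced genes, of which 69 genes were measured and 57 tested. Of these, 7 were called higher in T-ALL and 0 lower (limma), against 3.96% and 3.67% of all tested genes. Among the ligands, IFNA2, IFNB1 and IFNK were near the floor in all 13 lines and IFNA1 in 12, with Nalm16 at 5.06. IFNG was highest in Nalm16 at 6.10 and between 4.53 and 5.48 elsewhere. IFNL1 was near the floor in 10 lines and highest in ALL-SIL at 5.94. IFNE ran from 4.70 to 5.66 and was near the floor in 3 lines.

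The 7 called genes had roles at several steps. They were the receptor chain IFNAR1 (0.77, SE 0.21, adjusted p 0.0436), the signal transducer STAT3 (1.42, SE 0.33, adjusted p 0.0185), the phosphatase PTPN2 (1.09, SE 0.25, adjusted p 0.016), which damps JAK signaling, the DNA sensor IFI16 (1.39, SE 0.35, adjusted p 0.0282), and the induced genes DDX60L (1.05, SE 0.21, adjusted p 0.00673), APOL6 (1.27, SE 0.28, adjusted p 0.0138) and GBP3 (1.63, SE 0.32, adjusted p 0.007). STAT3 was highest in TALL-1 and P12-ICHIKAWA, at 10.16 and 10.14, and at most 8.56 in BCP-ALL. GBP3 and DDX60L did not overlap between the lineages, and GBP3 was near the floor in Nalm16 (4.0) and Nalm30 (4.48). The alternatives of the fit were not examined for these 7 genes. Over all tested genes, the share called higher in T-ALL was 2.41% with P12-ICHIKAWA and TALL-1 as 1 line. It was 1.54% with the provider as a random block.

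Several pathway genes differed sharply between single lines. IFNGR2, a chain of the receptor for interferon gamma, was at the floor in Nalm6 (4.0) and at 7.72 or more in the other 12 lines. SOCS1, an inhibitor of JAK signaling, was 9.82 in ALL-SIL, 7.0 in HPB-ALL and at most 5.51 elsewhere. PTPN6, a phosphatase of the same kind of role, was lowest in TALL-1 (5.91) and P12-ICHIKAWA (6.32). IFNLR1, the receptor chain for lambda interferons, ran from 4.0 to 8.35 in 697. TBK1, a kinase of the sensing pathway, was lowest in Nalm16 (4.57), P12-ICHIKAWA (4.89) and TALL-1 (5.0). IRF8 ran from 5.32 to 8.42.

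Of the further induced genes, TNFSF10, which encodes the death ligand TRAIL, reached 13.80 in ALL-SIL, 13.51 in P12-ICHIKAWA, 13.19 in TALL-1 and 11.72 in Jurkat, and was at most 8.33 elsewhere. SLFN5 was near the floor in REH (4.04) and reached 9.62 in TALL-1 and CCRF-CEM. TRIM14 was near the floor in 697 (4.57), RTP4 in CCRF-CEM (4.0) and Jurkat (4.16), and DDX60 in Nalm16 (4.76) and Nalm30 (4.87). LGALS9 ran from 5.10 in Nalm6 to 8.36 in TALL-1. The line with the lowest level differed from gene to gene.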

How the data were processed

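Per the labels and methods, RNA of 13 untreated ALL lines was hybridised to HG-U133 Plus 2.0 arrays, 1 per line. Culture lasted 30 h and phenol-chloroform was used for extraction by the labels, but the methods name an overnight culture and a spin-column kit. The authors deposited iterPLIER+16 values on a log2 scale, made in Affymetrix Expression Console (version not given), for 42450 probe sets. The value 16 was added before the log. No source used here gives the scaling between arrays.

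Of these probe sets, 38125 had 1 gene symbol, 1742 several and 2583 no listed gene, and only the first were used. Where a gene had several, that of highest mean was kept (18568 genes). Genes whose probe set exceeded the array median in at least 3 lines (12560) were fitted with limma 3.58.1 in R 4.3.3 (lmFit, eBayes), T-ALL against BCP-ALL, with Benjamini-Hochberg adjustment over all of them at 0.05. The fit was tested on simulated data. Figures and descriptions used Python 3.11.15. With 1 array per line, p-values rest on differences among lines, and precision is limited by how many arrays there are.

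The members and lists were chosen with earlier results of these data known. Levels per line are given for members called between lineages and for the 15 with the largest range. Outside the set, the 15 genes most like the mean member level are named, with pathway genes that were called or had a range of at least 3 log2 units. The alternatives covered the filter, the probe set, the normalization, the variance model, related lines, the provider of each line as a random block, and each line left out. Subtracting the mean of all tested genes, and likeness without Nalm16 and Nalm30, were added after seeing the data.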

Additional observations from a re-analysis of the deposited data

Results flagged for a closer look

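The level of 1 line stood apart from the rest of its lineage, by the gap to the nearest line over the whole range, in 10 of 84 groups (11.9%), which are the 41 genes and the mean member level in each lineage. Chance flags about 1 in 20 groups, and 8.32% of the groups of all tested genes were flagged. Low lines were IFI44 at 5.33 in Jurkat (next T-ALL line 6.12), HERC5 at 6.59 in ALL-SIL (next 7.75) and GBP1 at 4.56 in CCRF-CEM (next 7.11) among T-ALL. Among BCP-ALL, OAS3 was low at 4.03 in 697 (next 6.59), TRIM5 at 4.97 in Nalm16 (next 7.62) and CMPK2 at 4.29 in Nalm6 (next 7.04). High lines were MX1 at 6.97 in REH (next BCP-ALL line 4.91), IFI44L at 5.90 in Nalm30 (next 5.07), HERC6 at 6.65 in Molt4 (next T-ALL line 5.64) and GBP4 at 9.07 in ALL-SIL (next 6.64). The flagged values fell in 9 lines, with 2 in ALL-SIL and 1 in each of the others. With 1 array per line, a property of the array and one of the line cannot be told apart.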

How the results depend on the processing

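IRF7 and TRIM22 kept their direction and passed the threshold under all 23 alternatives of the lineage fit, and OAS1 kept its direction in the 22 where it was fitted and passed in 3. The count of members called lower in T-ALL was 2 or 3 throughout. The count called higher was 0 as reported and 1 with the mean of all probe sets and with median centering (SAMD9 in both), and 1 without Nalm16 and Nalm30 (IFITM1), and it ranged from 0 to 1 when each line was left out, with 1 without REH (SAMD9). TRIM5, at 0.02 as reported, was -0.0747 with the mean of all probe sets, -0.0749 with quantile normalization, -0.17 with the provider as a random block and -0.74 without Nalm16 and Nalm30, and -0.55 to 0.23 when each line was left out, with the lowest value without Nalm16. The cause was not tested. Of the 28 members whose difference had an unadjusted p of 0.05 or more and was called nowhere, 15 changed sign in at least 1 alternative. The mean member level of a line moved by at most 0.31 log2 units between settings, and in each case by less than the SD over the lines of its lineage. With the provider as a random block, 1.54% of all genes were called higher in T-ALL and 1.43% lower, against 3.96% and 3.67% as reported. Quantile normalization moved the median difference of all genes from 0.03 to -0.05. Levels near the floor give no order between lines, which limits IFIT1, OAS1, MX1, IFI27, IFI44L and GBP2 most.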
